A study of Mus musculus with 28 samples.

Results

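Lysosomal hydrolases, lysosomal membrane proteins, the subunits of the vacuolar proton pump and the transcription factors of the MiT family were followed through 28 RNA-seq libraries of mouse bone marrow-derived macrophages. The set holds 46 genes chosen by name: 7 membrane proteins, 9 proteases, 9 enzymes that break down glycans, 6 genes of lipid breakdown and their cofactors, 12 subunits and accessory proteins of the proton pump, and 3 MiT factors. All 46 were found by gene identifier in both deposited tables, which hold 15423 and 56941 genes, and all 46 passed the filter on low counts in both (13998 and 15429 genes tested). The study asked which transcriptional changes follow from Irgm1 deficiency and which of them depend on type I interferon.

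Cells came from male and female mice aged 2 to 4 months that had been backcrossed to C57BL/6, were grown for 6 days in medium with 20% L929-conditioned medium and 10% FBS, and were then kept for 24 h without the L929 supplement. Experiment 1 compared WT cells, Irgm1-KO cells, labelled as lacking the interferon-inducible GTPase Irgm1, and Irgm_IFNAR-KO cells, labelled as also lacking the type I interferon receptor. Experiment 2 compared WT and Irgm1KO cells, each as a control group and as a group given 50 µM fenofibrate, an activator of the nuclear receptor PPARα used to lower blood lipids. Every group held 4 libraries. No group lacks the receptor alone, the mutation is carried by the whole animal, and the labels do not say what the control cells received or how long fenofibrate was present. Nor do they say whether the replicates of a group came from separate animals, so each p-value rests on a spread among libraries that may be technical.

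Lysosomes are acidic organelles in which proteases, glycosidases, lipases and sulfatases degrade material from endocytosis, phagocytosis and autophagy. The vacuolar ATPase acidifies them: its cytosolic V1 sector hydrolyses ATP and its membrane-embedded V0 sector moves protons. Most soluble hydrolases reach the lysosome through mannose 6-phosphate receptors, and the MiT factors TFEB, TFE3 and MITF bind an E-box variant, the CLEAR element, in the promoters of many lysosomal genes. Macrophages carry large amounts of lysosomal protein, since they clear dead cells and microbes.

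The letters of the promoters come first. The genes were chosen by name as lysosomal genes, and the CLEAR element is known from promoters of many such genes. A high share of it here therefore describes the set and is no independent result. RefSeq promoter sequences of build GRCm38.p6 were matched for 40 of the 46 genes (not for Ctsb, Ctsh, Asah1, Atp6v1b2, Atp6v1c1 and Atp6v1h), and the 250 bases before each annotated start were searched on both strands. The CLEAR core TCACGTG, whose reverse complement is CACGTGA and which contains the E-box CACGTG, was present for 13 of the 40 genes (32.5%), against 3.58% of all 27025 genes in the promoter table and 5.87% and 5.77% of those tested in experiments 1 and 2. The E-box CACGTG itself was present for 14 of 40 (35%), against 6.86% of all genes. By role, TCACGTG stood before 3 of 7 membrane protein genes, 8 of 21 hydrolase and cofactor genes, 2 of 9 proton pump genes and 0 of the 3 MiT genes. The 13 genes were Lamp1, Mcoln1, Cln3, Ctsa, Ctsd, Lgmn, Gaa, Gla, Glb1, Naglu, Sgsh, Atp6v0b and Atp6v1a.

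The 3 promoters below are printed 5′ to 3′ on the strand of the gene and end at the base before the start. Lamp1 is shown because it held the most E-boxes (4), Mcoln1 because it changed in both experiments, and Gla because fenofibrate moved it in opposite directions in WT and Irgm1KO cells. Capitals mark each CACGTG with a T before it or an A after it where present. They lie at chr8:13158911-13159160 on the plus strand (Lamp1), chr8:3500269-3500518 on the plus strand (Mcoln1) and chrX:134601006-134601255 on the minus strand (Gla).
Lamp1: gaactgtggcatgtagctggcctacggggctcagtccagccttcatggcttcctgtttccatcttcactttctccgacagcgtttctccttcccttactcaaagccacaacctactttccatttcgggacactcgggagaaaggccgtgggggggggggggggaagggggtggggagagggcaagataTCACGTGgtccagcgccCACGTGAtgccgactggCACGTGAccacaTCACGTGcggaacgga
Mcoln1: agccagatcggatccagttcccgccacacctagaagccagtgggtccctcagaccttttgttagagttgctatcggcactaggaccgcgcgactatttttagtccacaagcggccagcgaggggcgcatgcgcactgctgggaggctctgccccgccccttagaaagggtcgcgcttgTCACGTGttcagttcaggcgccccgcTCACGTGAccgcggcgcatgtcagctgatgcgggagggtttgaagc
Gla: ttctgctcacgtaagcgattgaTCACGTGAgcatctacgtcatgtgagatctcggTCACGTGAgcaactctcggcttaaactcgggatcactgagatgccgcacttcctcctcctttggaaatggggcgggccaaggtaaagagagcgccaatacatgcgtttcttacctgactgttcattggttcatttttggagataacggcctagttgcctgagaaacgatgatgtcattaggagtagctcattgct
In Lamp1 the first letter of each CACGTG, without a flanking T, lay 61, 45, 28 and 15 bases before the start. In Mcoln1 it lay at 71 and 45 bases, and in Gla at 227 and 194. A match describes letters and not a bound site.

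**Figure D1:**
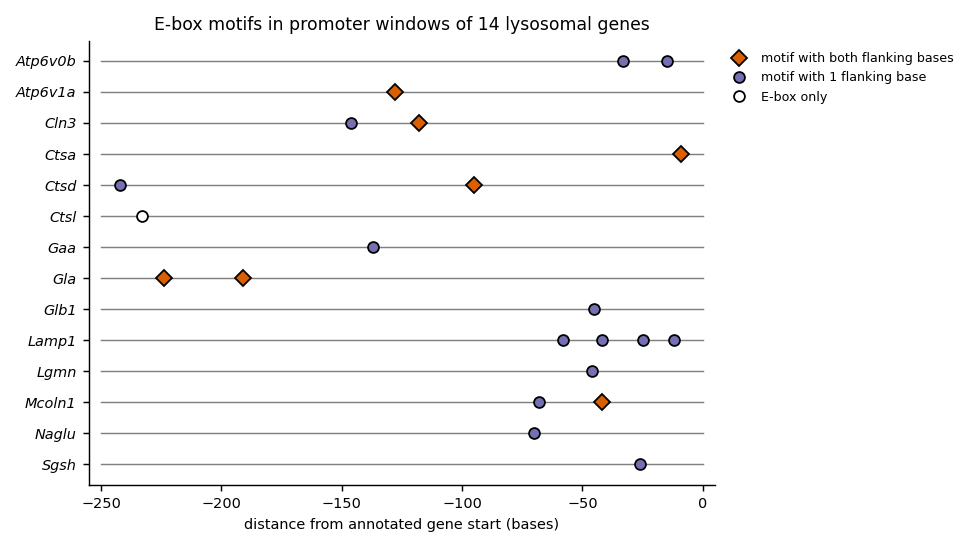
Positions of E-box runs (CACGTG with a flanking T or A where present) in the 250 bases before the annotated start of the 14 genes that held one, in bases before the start, 1 line per gene. Lamp1 held 4 runs, each with its CACGTG within 61 bases of the start, and those of Gla lay farther out, with the CACGTG at 227 and 194 bases.

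Libraries of experiment 1 held 48.7 to 70.5 M counts and those of experiment 2 held 82.4 to 120.8 M. Values are normalised CPM, read counts scaled to a common library size with TMM factors. Irgm1 read 1189 to 1352 CPM in WT, 628 to 839 in Irgm1-KO and 641 to 786 in Irgm_IFNAR-KO libraries. It read 1514 to 1669 CPM in WT control and 991 to 1040 in Irgm1KO control libraries, lower in each knockout group. The log2 fold changes were -0.766 for Irgm1-KO against WT and -0.655 for Irgm1KO control against WT control. Reads over Irgm1 thus remained in these knockout libraries, and its loss rests on the labels and not on these counts. Ifnar1, a chain of the type I interferon receptor, read 128.2 to 140.8 CPM in WT, 111.9 to 126.9 in Irgm1-KO and 53.08 to 114.1 in Irgm_IFNAR-KO libraries, below WT in all 4 but within the Irgm1-KO range in 1. It was not called in Irgm_IFNAR-KO cells (log2 fold change -0.50, adjusted p = 0.119 against WT, and -0.33, adjusted p = 0.178 against Irgm1-KO), so counts over this gene do not establish the label. The sources used here do not say which part of which receptor gene was altered. In experiment 1, 3 libraries stood apart along transcript length. Spearman's rho between a gene's deviation from its group mean and its exon length, over 13951 genes of 1 library, was -0.620 in WT replicate 2, -0.567 in Irgm1-KO replicate 3 and -0.650 in Irgm_IFNAR-KO replicate 4, against -0.133 to 0.581 in the other libraries. Short genes such as Atp6v0b, a proton-channel subunit, were high in them (231, 819.7, 388 and 339.6 CPM in the WT libraries), and each was the library with the least Xist of its group. Experiment 2 spread less, from -0.396 in Irgm1KO fenofibrate replicate 2 to 0.315. Across the 46 genes, Spearman's rho between the log2 fold change and exon length ran from -0.292 to 0.247 over the 7 comparisons.

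Macrophage markers were high in every library, and their summed CPM differed between groups: 21900 to 42100 in WT, 10100 to 15200 in Irgm1-KO and 29300 to 40600 in Irgm_IFNAR-KO. In experiment 2 the sum was 22800 to 31500 in WT control, 14500 to 23200 in WT fenofibrate, 11200 to 13400 in Irgm1KO control and 15500 to 18900 in Irgm1KO fenofibrate. Lyz2, the abundant lysozyme gene, held most of that spread: it read 14500 to 35300 CPM in WT, 3710 to 8810 in Irgm1-KO and 22300 to 34000 in Irgm_IFNAR-KO libraries, whereas the other 9 markers summed to 6750 to 7380, 6390 to 6720 and 6570 to 6990. In experiment 2 those 9 summed to 7930 to 8100 CPM in WT control, 5790 to 6580 in WT fenofibrate, 6820 to 7310 in Irgm1KO control and 5900 to 6440 in Irgm1KO fenofibrate libraries. In Irgm1-KO against WT cells 2 of 10 macrophage markers rose and 3 fell, Lyz2 by a log2 fold change of -2.06. Neutrophil markers summed to 17.1 to 41.7 CPM in WT and 6.07 to 10.2 in Irgm1-KO, and 6 of 7 tested fell.

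Dendritic cell markers summed to 49.5 to 57.2 CPM in WT, 25.8 to 32.5 in Irgm1-KO and 62.4 to 73.4 in Irgm_IFNAR-KO. Of 4 tested in Irgm1-KO against WT cells, Xcr1 (0.63) and Itgax (0.61) rose and Clec9a (-1.25) fell on the log2 scale. In experiment 2 the sum was higher in Irgm1KO control (98.9 to 105) than in WT control libraries (55.5 to 64.1), and 2 of 5 tested rose and 0 fell. Stromal markers summed to 3.02 to 7.92 CPM in WT, 1.02 to 1.60 in Irgm1-KO and 6.76 to 8.11 in Irgm_IFNAR-KO. In experiment 2 the stromal sum was 1.29 to 3.25 CPM in WT control and 0.137 to 0.195 in Irgm1KO control. All 4 of 4 tested fell on the log2 scale: Cxcl12 (-3.89), Col1a2 (-3.82), Pdgfrb (-2.25) and Col1a1, a collagen gene (-7.41, adjusted p = 0.00127). These levels are near the floor. Col1a1 gave 0 (SE 0) between the 2 Irgm1KO groups, so the size of its fall was not measured. Osteoclast markers summed to 103 to 112 CPM in WT control and 117 to 125 in Irgm1KO control, where 3 of 5 rose (Ocstamp, Dcstamp and Ctsk) and 1 fell, and their sums overlapped in experiment 1. With fenofibrate the osteoclast sum was 95 to 106 CPM in WT and 137 to 179 in Irgm1KO, and the dendritic sum 55.7 to 60.5 and 116 to 140. Single markers went both ways against their controls. In Irgm1KO cells Ocstamp (log2 fold change 0.96), Acp5 (0.73) and Itgax (0.57) rose, and Ctsk (-1.145) and Xcr1 (-1.26) fell. In WT cells Ctsk (0.94) and Itgax (0.87) rose, and Nfatc1 (-0.18), Xcr1 (-2.47) and Clec9a (-1.03) fell. Fewer cells of a type and less RNA per cell cannot be told apart in such bulk samples, and the part of these markers in the results below was not tested.

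Levels between genes were compared as CPM per kilobase of exon. In WT cells of experiment 1, Psap, the precursor of the saposins that help sphingolipid hydrolases, was highest at 6821 ± 526 CPM per kb (SD, n = 4), followed by Ctsb, a cysteine protease, at 3173 ± 229. Lamp1, Grn and Ctsh came next at 1313 ± 131, 1171 ± 133 and 1081 ± 519, and their SDs overlap. The lowest were Tfeb at 8.49 ± 0.374, Mitf at 11.5 ± 1.16, Smpd1 at 14.1 ± 0.512 and Mcoln1 at 16.2 ± 0.257. In Irgm1-KO cells Ctsz moved from rank 10 to rank 4, Hexa from 7 to 13 and Gusb from 22 to 28 in the order of these levels. Together the 46 genes took 6.34% ± 0.37 of all counts in WT, 6.01% ± 0.464 in Irgm1-KO and 5.90% ± 0.177 in Irgm_IFNAR-KO libraries.

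Loss of Irgm1 moved these genes in both directions, by gene and not as a block. In experiment 1, 10 of 46 rose in Irgm1-KO against WT cells (21.7%, against 19.8% of all tested genes) and 8 fell (17.4%, against 20.7%). In experiment 2, 13 rose in Irgm1KO control against WT control cells (28.3%, against 27.3%) and 14 fell (30.4%, against 26.1%). These shares lay near those of all genes, and the median log2 fold changes of the 46 were -0.01 and 0.01, against -0.02 and 0.00 for all genes. A gene counts as called where edgeR's quasi-likelihood test gave a Benjamini-Hochberg adjusted p under 0.05 over all tested genes. The experiments share no libraries: 17 of the 18 genes called in experiment 1 were called in the same direction in experiment 2 (94.4% of 18, 63% of 27), and the exception was Mitf. Among all 13676 genes tested in both experiments the same shares were 77.2% of 5563 and 55% of 7807, and the difference was not tested.

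**Figure D2:**
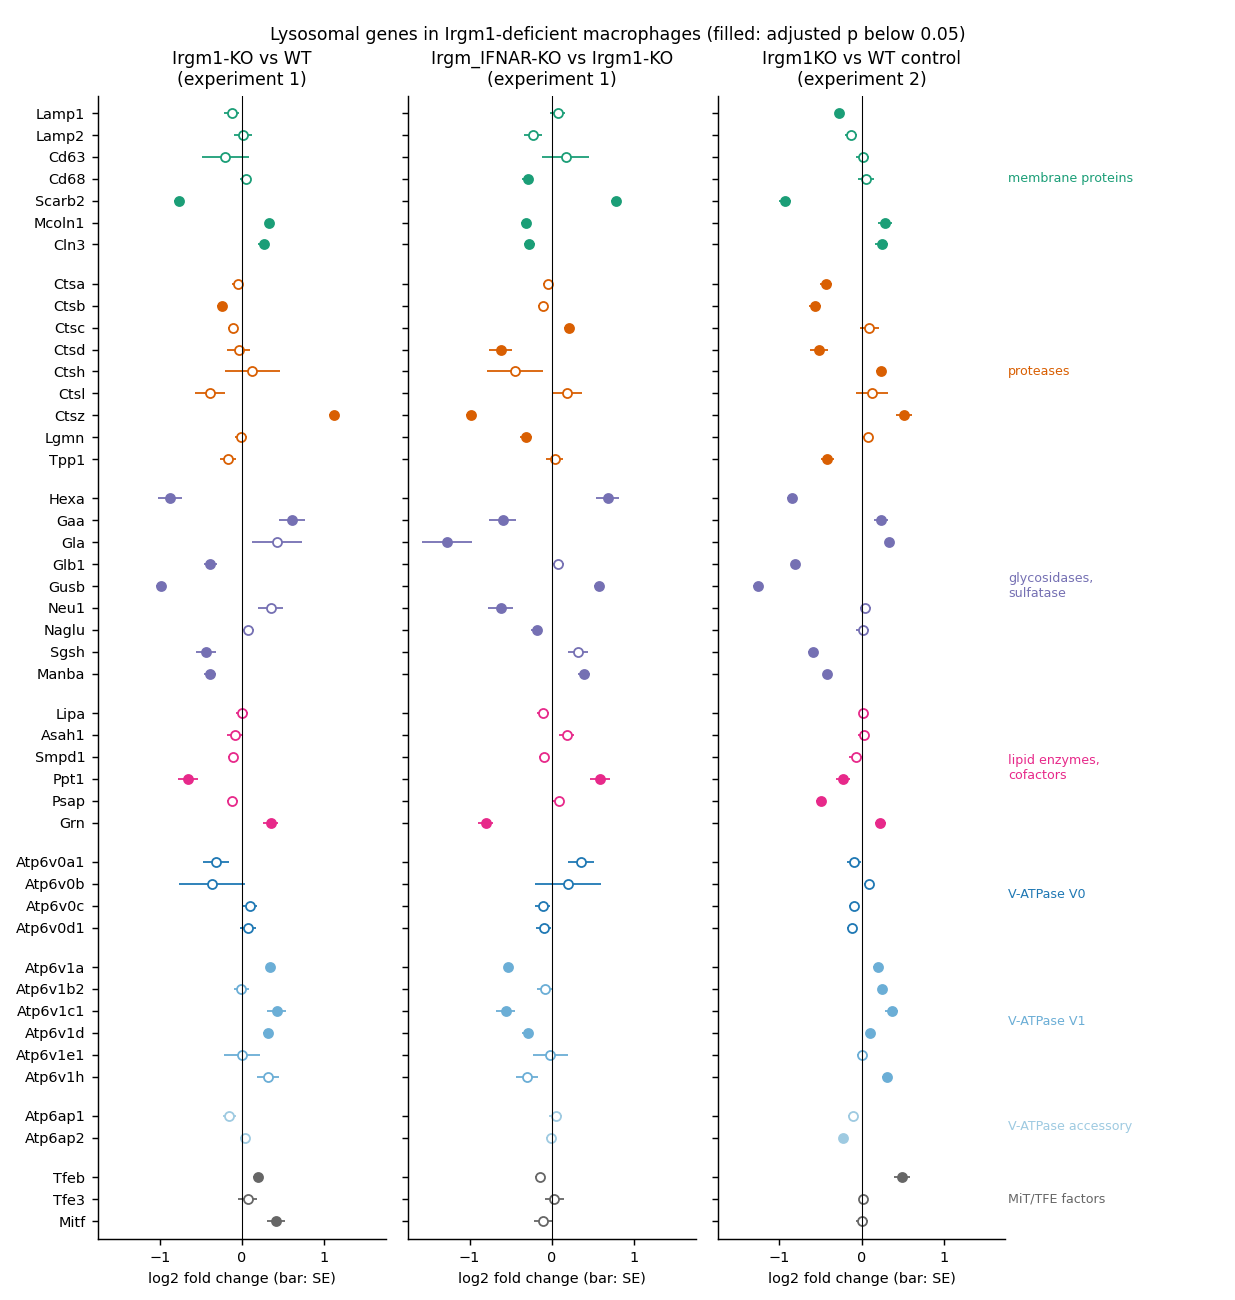
Log2 fold change ± SE of each of the 46 genes, grouped by role, for Irgm1-KO against WT, Irgm_IFNAR-KO against Irgm1-KO and Irgm1KO control against WT control (n = 4 libraries a group). Filled points passed an adjusted p of 0.05, and Gusb, Hexa and Scarb2 lie left of 0 in both comparisons of Irgm1 knockout with WT while Ctsz lies right of 0.

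Among the glycan-degrading enzymes, 1 of 9 rose and 5 fell with loss of Irgm1 in experiment 1 (11.1% and 55.6%, against 19.8% and 20.7% of all tested genes). In experiment 2, 2 rose and 5 fell (22.2% and 55.6%, against 27.3% and 26.1%). Gusb, β-glucuronidase, which removes glucuronic acid from glycosaminoglycans, read 531, 553, 519 and 519 CPM in WT, 264, 268, 265 and 272 in Irgm1-KO and 406, 394, 408 and 379.8 in Irgm_IFNAR-KO libraries. The 3 groups do not overlap, with Irgm1-KO lowest (log2 fold change against WT -0.99, SE 0.0584, adjusted p = 9.89e-08) and Irgm_IFNAR-KO between (0.57, SE 0.0581, adjusted p = 7.05e-06 against Irgm1-KO). In experiment 2 Gusb read 820.3, 853, 771 and 861 CPM in WT control and 316, 337, 376 and 356 in Irgm1KO control libraries, again without overlap (log2 fold change -1.26, SE 0.0616, adjusted p = 2.35e-10). Hexa, the α subunit of β-hexosaminidase A, which degrades GM2 ganglioside, read 1221, 1902, 1554 and 1467 CPM in WT, 711, 766, 1008 and 859 in Irgm1-KO and 1243, 1396, 1210 and 1501 in Irgm_IFNAR-KO libraries. Every Irgm1-KO library was below every WT library (log2 fold change -0.88, SE 0.143, adjusted p = 0.000389), and the WT and Irgm_IFNAR-KO libraries overlapped. Experiment 2 gave 1372, 1355, 1367 and 1449 CPM in WT control against 693, 771, 853 and 762 in Irgm1KO control libraries (log2 fold change -0.85, SE 0.061, adjusted p = 1.21e-08).

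Glb1, β-galactosidase, read 157, 137, 159.7 and 157 CPM in WT and 115, 123, 109 and 121 in Irgm1-KO libraries (log2 fold change -0.38, SE 0.0738, adjusted p = 0.00121). In Irgm_IFNAR-KO libraries it stayed low, at 130.1, 126, 122 and 117 CPM, and in experiment 2 it fell from 211, 223, 228 and 234 CPM in WT control to 116, 127, 136 and 132 in Irgm1KO control libraries (log2 fold change -0.81, SE 0.0527, adjusted p = 4.16e-09). For Glb1, no Irgm1-deficient library of these groups reached a WT value of its own experiment. Sgsh, heparan N-sulfatase, read 94.3, 64.7, 84.3 and 80.7 CPM in WT, 57.1, 65.1, 51.7 and 64.5 in Irgm1-KO and 83.7, 74.3, 72.7 and 66.7 in Irgm_IFNAR-KO libraries, where WT replicate 2 lay within the Irgm1-KO range (log2 fold change -0.44, SE 0.121, adjusted p = 0.0115). It fell from 119, 108, 126 and 114 to 72.3, 71.5, 82.9 and 82.9 CPM in experiment 2 (log2 fold change -0.59, SE 0.0599, adjusted p = 4.93e-07). Manba, β-mannosidase, fell in both experiments, with log2 fold changes of -0.39 (adjusted p = 0.0013) and -0.42 (adjusted p = 1.11e-06).

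Gaa, acid α-glucosidase, which degrades glycogen, rose. It read 92.6, 56.2, 78.7 and 78.7 CPM in WT, 121, 135, 90.6 and 121 in Irgm1-KO and 85.7, 78.6, 80.6 and 63.7 in Irgm_IFNAR-KO libraries, with an overlap between the lowest Irgm1-KO and the highest WT library (log2 fold change 0.61, SE 0.16, adjusted p = 0.00928). In experiment 2 Gaa read 136, 122, 141 and 145 CPM in WT control and 149.6, 165, 163 and 164 in Irgm1KO control libraries (log2 fold change 0.24, SE 0.0842, adjusted p = 0.0245). This call was lost without Irgm1KO control replicate 2, 3 or 4 or WT control replicate 2 (log2 fold change 0.19 to 0.23, adjusted p = 0.0508 to 0.0815). Gla, α-galactosidase A, rose in experiment 2 (log2 fold change 0.34, adjusted p = 4.81e-05) and read 248 to 691 CPM in WT and 429 to 875 in Irgm1-KO libraries of experiment 1, where the ranges overlapped (log2 fold change 0.43, adjusted p = 0.291). Neu1, a sialidase, and Naglu, an N-acetylglucosaminidase of heparan sulfate breakdown, passed the threshold in neither experiment, with log2 fold changes of 0.35 and 0.04, and of 0.08 and 0.01.

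Among the proteases, 1 of 9 rose and 1 fell in experiment 1 (11.1% each, against 19.8% and 20.7% of all tested genes). In experiment 2, 2 rose and 4 fell (22.2% and 44.4%, against 27.3% and 26.1%). Ctsz, a carboxypeptidase of the cathepsin family, gave the largest rise of the set in experiment 1. It read 928, 912, 918 and 944 CPM in WT, 1946, 2023, 1957 and 2109 in Irgm1-KO and 982, 1024, 973 and 1098 in Irgm_IFNAR-KO libraries (log2 fold change 1.12, SE 0.0618, adjusted p = 5.77e-08 for Irgm1-KO against WT). The Irgm_IFNAR-KO libraries all lay slightly above WT, by a log2 fold change of 0.14 (adjusted p = 0.193). In experiment 2 Ctsz read 1314, 1243, 1282 and 1321 CPM in WT control and 1755, 1880, 1807 and 1935 in Irgm1KO control libraries (log2 fold change 0.52, SE 0.0943, adjusted p = 0.000209).

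Ctsd, the main aspartic protease of lysosomes, passed in experiment 2 and not in experiment 1. It read 1636, 2277, 1680 and 1785 CPM in WT and 1494, 1691, 2205 and 1792 in Irgm1-KO libraries, which overlapped (log2 fold change -0.04, adjusted p = 0.853), and 1101, 1139, 1053 and 1380 in Irgm_IFNAR-KO libraries, below both. In experiment 2 Ctsd fell from 2897, 2717, 2722 and 3486 CPM in WT control to 1837, 2211, 2185 and 2045 in Irgm1KO control libraries (log2 fold change -0.51, SE 0.108, adjusted p = 0.000714). Ctsb fell in both experiments, with log2 fold changes of -0.24 (adjusted p = 0.00976) and -0.57 (adjusted p = 5.07e-06). Tpp1, a tripeptidyl peptidase, read 266, 197, 247 and 247 CPM in WT, 207, 220.1, 193 and 231 in Irgm1-KO and 222, 231, 224 and 195 in Irgm_IFNAR-KO libraries, with overlapping ranges (log2 fold change -0.17, adjusted p = 0.209). In experiment 2 the Tpp1 values were 327, 299, 326 and 357 CPM in WT control and 227, 256, 261 and 237 in Irgm1KO control libraries, which do not overlap (log2 fold change -0.42, SE 0.0806, adjusted p = 0.000344). Ctsa, the carboxypeptidase that stabilises β-galactosidase and Neu1, fell in experiment 2 (log2 fold change -0.43, adjusted p = 2e-04) and gave -0.06 (adjusted p = 0.53) in experiment 1. Ctsh, an aminopeptidase, rose in experiment 2 alone (log2 fold change 0.24, adjusted p = 0.00237). Its values in experiment 1 followed the libraries that stood apart (962, 2923, 1695 and 1414 CPM in WT and 1391, 1472, 3016 and 1752 in Irgm1-KO).

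Ctsc, which activates the serine proteases of granules, read 3521, 4116, 3727 and 3633 CPM in WT, 3624, 3479, 3416 and 3380 in Irgm1-KO and 3913, 4087, 3972 and 4069 in Irgm_IFNAR-KO libraries. It was higher in Irgm_IFNAR-KO than in Irgm1-KO libraries (log2 fold change 0.21, SE 0.0619, adjusted p = 0.0172). This call was lost without Irgm1-KO replicate 4 (log2 fold change 0.18, adjusted p = 0.0565). Lgmn, an asparaginyl endopeptidase, and Ctsl, a cysteine endopeptidase, passed in neither comparison of Irgm1 knockout with WT, with log2 fold changes of -0.01 and 0.08, and of -0.39 and 0.13.

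Membrane proteins gave 2 rises and 1 fall among 7 in experiment 1 (28.6% and 14.3%, against 19.8% and 20.7% of all tested genes). They gave 2 rises and 2 falls in experiment 2 (28.6% each, against 27.3% and 26.1%). Scarb2, also called LIMP-2, the receptor that carries β-glucocerebrosidase to the lysosome, read 296, 301, 302 and 306 CPM in WT, 172, 181, 174 and 181 in Irgm1-KO and 318, 311, 299.7 and 286 in Irgm_IFNAR-KO libraries. All Irgm1-KO libraries were below all others (log2 fold change -0.77, SE 0.0606, adjusted p = 1.07e-06), and the other 2 groups overlapped. In experiment 2 it read 408, 476, 386 and 419.8 CPM in WT control and 203, 220.1, 245 and 219 in Irgm1KO control libraries (log2 fold change -0.93, SE 0.0707, adjusted p = 2.17e-08). Mcoln1, the cation channel TRPML1, moved the other way, from 34.2, 32.9, 33.2 and 33.4 CPM in WT to 40.4, 44.0, 41.7 and 42.2 in Irgm1-KO libraries (log2 fold change 0.33, SE 0.0562, adjusted p = 0.000487). It stood at 33.2, 33.9, 33.6 and 34.2 CPM in Irgm_IFNAR-KO libraries, within or near the WT range. Experiment 2 gave 35.2, 31.8, 35.2 and 35.4 CPM in WT control and 40.8, 42.2, 42.6 and 42.5 in Irgm1KO control libraries (log2 fold change 0.29, SE 0.085, adjusted p = 0.00875).

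Cln3, a membrane protein whose loss causes juvenile Batten disease, rose in both experiments, by 0.27 (adjusted p = 0.00688) and 0.25 (adjusted p = 0.0137) on the log2 scale. Lamp1, the abundant glycoprotein of the lysosomal membrane, read 2538, 3235, 3027 and 2907 CPM in WT, 2435, 2548, 2999 and 2741 in Irgm1-KO and 2643, 2992, 2629 and 3019 in Irgm_IFNAR-KO libraries, with overlapping ranges (log2 fold change -0.13, adjusted p = 0.311). In experiment 2, where the libraries spread less, Lamp1 fell from 2961, 2726, 2958 and 3028 to 2320, 2448, 2497 and 2420 CPM (log2 fold change -0.27, SE 0.0507, adjusted p = 0.00027). Lamp2, its homologue, Cd63, a tetraspanin, and Cd68, a macrophage glycoprotein, did not pass between Irgm1 knockout and WT in either experiment. Their log2 fold changes ran from -0.20 (Cd63) to 0.04 (Cd68) in experiment 1 and from -0.13 (Lamp2) to 0.06 (Cd68) in experiment 2.

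Of the 6 genes of lipid breakdown and their cofactors, 1 rose and 1 fell in experiment 1 (16.7% each, against 19.8% and 20.7% of all tested genes). In experiment 2, 1 rose and 2 fell (16.7% and 33.3%, against 27.3% and 26.1%). Ppt1, which removes palmitate from proteins, read 931, 1364, 1215 and 1163 CPM in WT, 679, 699.6, 837 and 748 in Irgm1-KO and 980, 1120, 1072 and 1291 in Irgm_IFNAR-KO libraries. Irgm1-KO lay below both other groups (log2 fold change -0.66, SE 0.123, adjusted p = 0.00104). In experiment 2 the fall was smaller, from 1056, 1104, 1115 and 944 CPM in WT control to 905, 863, 910.4 and 936 in Irgm1KO control libraries (log2 fold change -0.22, SE 0.0831, adjusted p = 0.0319). The call was lost without Irgm1KO control replicate 1, 2 or 3 or WT control replicate 1, 2 or 3 (log2 fold change -0.23 to -0.19, adjusted p = 0.052 to 0.0867). Grn, progranulin, read 3085, 2331, 2812 and 2729 CPM in WT, 3537, 3692, 3097 and 3636 in Irgm1-KO and 2106, 1997, 2010 and 1895 in Irgm_IFNAR-KO libraries, so that Irgm1-KO was above and Irgm_IFNAR-KO below WT (log2 fold change 0.35, SE 0.0892, adjusted p = 0.0078, and -0.45, SE 0.0893, adjusted p = 0.00499). It rose from 3765, 3388, 3728 and 3841 to 4323, 4166, 4161 and 4589 CPM in experiment 2 (log2 fold change 0.23, SE 0.0655, adjusted p = 0.00747).

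Psap read 19950, 16660, 19380 and 18880 CPM in WT, 16810, 17620, 16230 and 18260 in Irgm1-KO and 18410, 18800, 17860 and 18040 in Irgm_IFNAR-KO libraries, with overlap (log2 fold change -0.12, adjusted p = 0.176). In experiment 2 it fell from 19280, 18810, 20710 and 20510 CPM in WT control to 13750, 13790, 14090 and 14780 in Irgm1KO control libraries (log2 fold change -0.49, SE 0.0616, adjusted p = 4.76e-06). Lipa, the acid lipase, Asah1, acid ceramidase, and Smpd1, acid sphingomyelinase, passed the threshold for Irgm1 in neither experiment. Their log2 fold changes ran from -0.11 (Smpd1) to 0.00 (Lipa) in experiment 1 and from -0.07 (Smpd1) to 0.03 (Asah1) in experiment 2.

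Of the proton pump's V1 sector, 3 of the 6 subunits in the set rose with loss of Irgm1 in experiment 1 (50%, against 19.8% of all tested genes) and 5 of 6 in experiment 2 (83.3%, against 27.3%). The 3 further V1 subunits tested, Atp6v1f, Atp6v1g1 and Atp6v1g2, did not pass in experiment 1 (log2 fold change -0.09, 0.06 and -0.02), and of these Atp6v1g1 rose in experiment 2 (log2 fold change 0.16, adjusted p = 0.0457). Of the 4 V0 subunits in the set, 0 were called by edgeR in either experiment, 0 had an unadjusted p below 0.05, and DESeq2 called 0. V0 subunits outside the set did pass. Tcirg1 (log2 fold change 1.00 and 0.75) and Atp6v0a2 (0.55 and 0.41) rose in both experiments. Atp6v0e2 fell in both (-3.53 and -3.52). Atp6v0d2 fell in experiment 1 (-1.26) and did not pass in experiment 2 (0.59), and Atp6v0e passed in neither (-0.11 and 0.10). Atp6v1a, the catalytic subunit, read 512, 547, 533 and 515 CPM in WT, 662, 672, 671 and 671 in Irgm1-KO and 458, 481, 459 and 454 in Irgm_IFNAR-KO libraries. The groups do not overlap, with Irgm1-KO highest (log2 fold change 0.34, SE 0.0564, adjusted p = 0.000377). In experiment 2 it read 660.4, 603, 636 and 656 CPM in WT control and 725, 758, 738 and 720 in Irgm1KO control libraries (log2 fold change 0.20, SE 0.0643, adjusted p = 0.0138). The call was lost without WT control replicate 2 (log2 fold change 0.18, adjusted p = 0.0531). Atp6v1c1, which joins the V1 and V0 sectors, read 113, 164, 138 and 128 CPM in WT, 165, 172, 207 and 184 in Irgm1-KO and 111, 129.8, 119 and 134 in Irgm_IFNAR-KO libraries (log2 fold change 0.42, SE 0.118, adjusted p = 0.0132). It read 159.6, 143, 149 and 164 and 191, 209.6, 200.5 and 193 CPM in WT control and Irgm1KO control libraries, without overlap (log2 fold change 0.37, SE 0.0802, adjusted p = 0.000993).

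Atp6v1h, a regulatory V1 subunit, read 73.2, 114, 98.2 and 93.05 CPM in WT, 106, 111, 138 and 115 in Irgm1-KO and 84.5, 98.8, 88.3 and 110.2 in Irgm_IFNAR-KO libraries, where the ranges overlapped (log2 fold change 0.32, adjusted p = 0.0891). In experiment 2 the Irgm1KO control libraries, at 109, 115, 107 and 107 CPM, were all above the WT control libraries, at 90.8, 84.7, 86.2 and 92.6 (log2 fold change 0.30, SE 0.0534, adjusted p = 0.000144). Atp6v1d, a subunit of the central stalk, rose by 0.32 (adjusted p = 0.00163) and 0.11 (adjusted p = 0.0388) on the log2 scale. The second call was lost without Irgm1KO control replicate 1, 3 or 4 or WT control replicate 1, 2 or 4 (log2 fold change 0.09 to 0.11, adjusted p = 0.066 to 0.101). Atp6v1b2, a nucleotide-binding subunit, rose in experiment 2 (log2 fold change 0.25, adjusted p = 0.000254) and gave -0.01 (adjusted p = 0.951) in experiment 1, and Atp6v1e1, of the peripheral stalk, gave -0.00 and 0.00. Of the accessory proteins, Atp6ap2 fell in experiment 2 (log2 fold change -0.23, adjusted p = 0.000541) and gave 0.04 (adjusted p = 0.625) in experiment 1, and Atp6ap1 gave -0.16 (adjusted p = 0.14) and -0.10 (adjusted p = 0.172).

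Of the MiT factors, Tfeb was higher in Irgm1 knockout than in WT cells of both experiments. It read 35.5, 33.3, 35.2 and 32.4 CPM in WT, 40.1, 39.5, 36.7 and 39.4 in Irgm1-KO and 35.1, 35.7, 34.5 and 36.1 in Irgm_IFNAR-KO libraries, a small rise against WT (log2 fold change 0.19, SE 0.0611, adjusted p = 0.0256). It was lost without Irgm1-KO replicate 1, 2 or 4 or WT replicate 4 (log2 fold change 0.17 to 0.19, adjusted p = 0.0572 to 0.085). In experiment 2 the values were 36.2, 32.6, 36.1 and 33.1 CPM in WT control and 44.9, 52.4, 47.8 and 49.1 in Irgm1KO control libraries, which do not overlap (log2 fold change 0.49, SE 0.0996, adjusted p = 0.000529). Mitf read 68.2, 53.5, 59.6 and 63.2 CPM in WT, 95.3, 82.7, 68.7 and 78.5 in Irgm1-KO and 77.8, 73.8, 84.0 and 66.1 in Irgm_IFNAR-KO libraries (log2 fold change 0.41, SE 0.114, adjusted p = 0.0123). In experiment 2 it did not separate, at 84.7, 93.1, 83.7 and 82.6 against 86.9, 84.3, 86.9 and 86.4 CPM (log2 fold change 0.00, adjusted p = 0.983). Tfe3 read 121, 82.2, 106 and 109 CPM in WT, 115, 118, 93.1 and 113 in Irgm1-KO and 122, 108, 113 and 106 in Irgm_IFNAR-KO libraries, all overlapping (log2 fold change 0.07, adjusted p = 0.682).

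**Figure D3:**
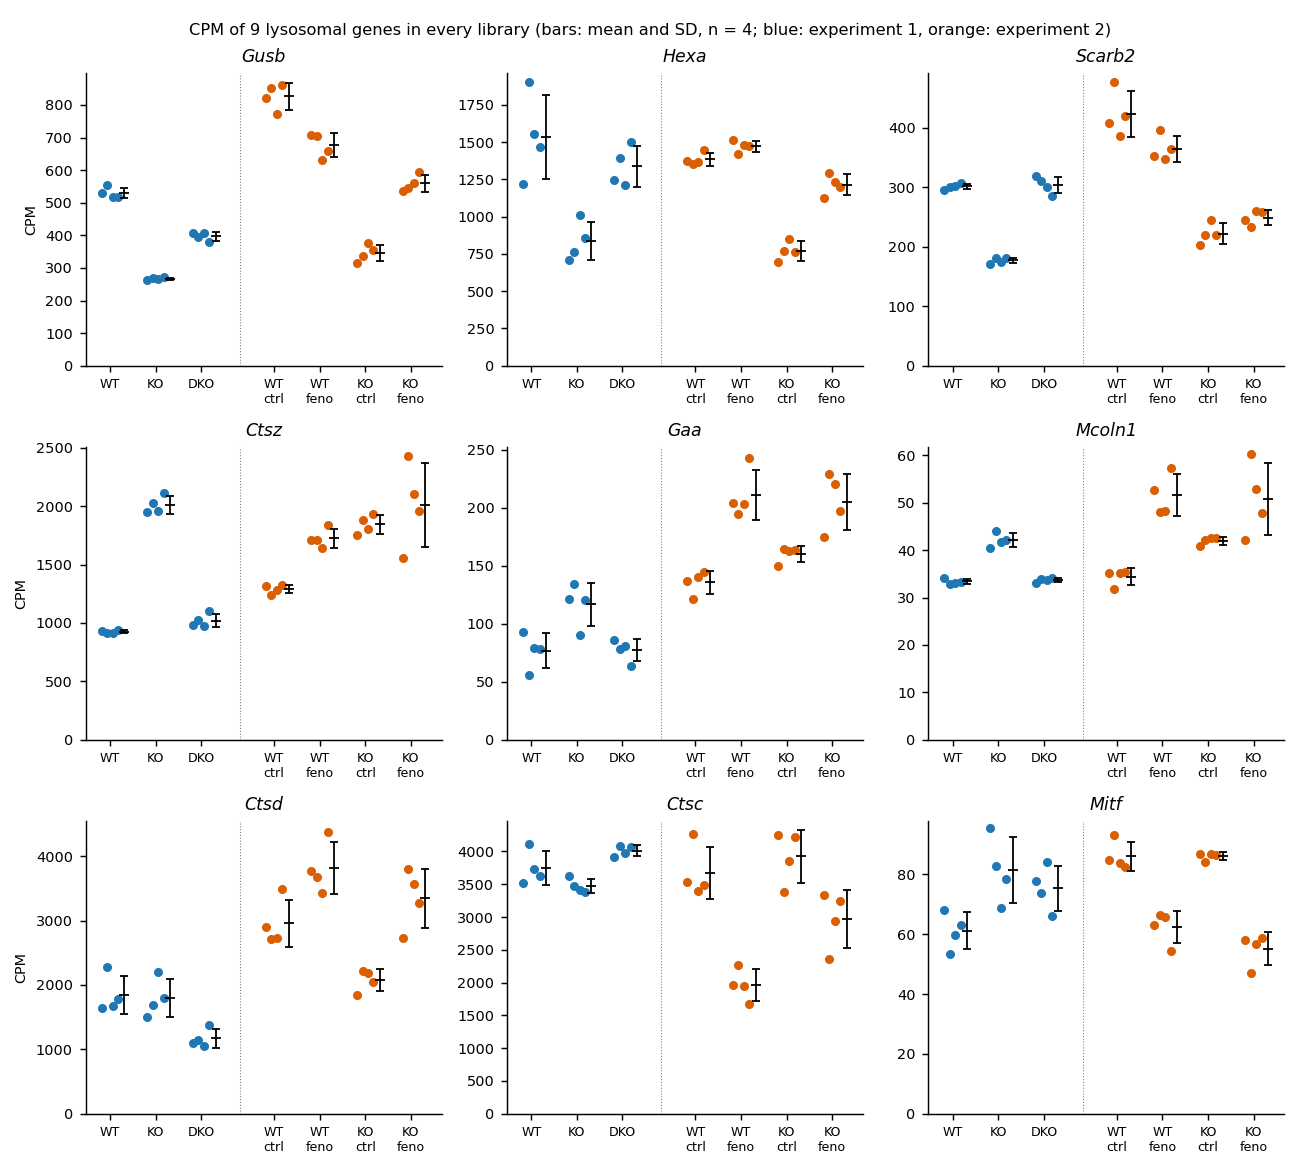
Normalised CPM of Gusb, Hexa, Scarb2, Ctsz, Gaa, Mcoln1, Ctsd, Ctsc and Mitf in each library (points), with the mean and SD of each group (bars, n = 4), where KO stands for the Irgm1 knockout, DKO for Irgm_IFNAR-KO, ctrl for control and feno for fenofibrate. Gusb, Hexa and Scarb2 are lower and Ctsz is higher in KO than in WT in both experiments, and Ctsc is low in both fenofibrate groups.

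Irgm_IFNAR-KO cells were set against Irgm1-KO cells to ask what removal of the interferon receptor changes when Irgm1 is absent. 6 of the 46 genes were higher (13%, against 21.5% of all tested genes) and 14 were lower (30.4%, against 21.3%), with a median log2 difference of -0.10 against 0.02 for all genes. This comparison shares the Irgm1-KO libraries with that against WT, so opposite signs in the 2 are not independent, and the values stand side by side. For Scarb2 the log2 fold changes were -0.77 (Irgm1-KO against WT) and 0.78, SE 0.0606, adjusted p = 6.82e-07 (Irgm_IFNAR-KO against Irgm1-KO). For Hexa they were -0.88 and 0.68, SE 0.143, adjusted p = 0.0022, for Ppt1 -0.66 and 0.59, SE 0.123, adjusted p = 0.002, and for Manba -0.39 and 0.39, SE 0.0756, adjusted p = 0.00114. In the other direction, Ctsz gave 1.12 and -0.98, SE 0.0616, adjusted p = 1.02e-07, Atp6v1a 0.34 and -0.53, SE 0.0565, adjusted p = 1.03e-05, and Gaa 0.61 and -0.60, SE 0.16, adjusted p = 0.00962. The V1 subunits Atp6v1c1 and Atp6v1d gave -0.56 (adjusted p = 0.00227) and -0.30 (adjusted p = 0.00235), and Mcoln1 and Cln3 gave -0.32 (adjusted p = 0.000607) and -0.28 (adjusted p = 0.00524).

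Several genes fell in Irgm_IFNAR-KO cells that had not passed between Irgm1-KO and WT. On the log2 scale, Gla gave -1.28 (adjusted p = 0.00532), Neu1 -0.62 (adjusted p = 0.00576), Ctsd -0.62 (adjusted p = 0.00357), Lgmn -0.31 (adjusted p = 0.00511) and Cd68 -0.30 (adjusted p = 0.00319). Gla read 192, 251, 206 and 296 CPM in Irgm_IFNAR-KO against 429, 450.4, 875 and 531 in Irgm1-KO libraries, below every one of them. Naglu fell, at -0.18 (adjusted p = 0.0471). The call was lost without Irgm1-KO replicate 1, 2 or 4 or Irgm_IFNAR-KO replicate 1, 2, 3 or 4 (log2 fold change -0.20 to -0.16, adjusted p = 0.0545 to 0.118). Of the MiT factors 0 were called by edgeR, 0 higher and 1 lower had an unadjusted p below 0.05, and DESeq2 called 1 lower.

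Between Irgm_IFNAR-KO and WT cells, 0 of 46 genes were called higher by edgeR (3.94% of all tested genes were), 2 had an unadjusted p below 0.05, and DESeq2 called 0. 8 genes were lower (17.4%, against 8.22% of all genes): Cd68, Ctsb, Ctsd, Lgmn, Glb1, Gusb, Smpd1 and Grn. The values were -0.42, SE 0.058, adjusted p = 0.000411 for Gusb, -0.45, SE 0.0893, adjusted p = 0.00499 for Grn, -0.66, SE 0.141, adjusted p = 0.00834 for Ctsd, -0.35, SE 0.0641, adjusted p = 0.00297 for Ctsb and -0.33, SE 0.0756, adjusted p = 0.0128 for Lgmn, as log2 fold changes. The call of Lgmn was lost without Irgm_IFNAR-KO replicate 2 (log2 fold change -0.30, adjusted p = 0.0551). The call of Cd68 (log2 fold change -0.25, adjusted p = 0.0267) was lost without Irgm_IFNAR-KO replicate 1, 2 or 3 or WT replicate 2, 3 or 4 (log2 fold change -0.26 to -0.22, adjusted p = 0.0516 to 0.0883). That of Glb1 (log2 fold change -0.30, adjusted p = 0.0166) was lost without Irgm_IFNAR-KO replicate 3 or 4 or WT replicate 3 or 4 (log2 fold change -0.31 to -0.28, adjusted p = 0.0503 to 0.0627). That of Smpd1 (log2 fold change -0.21, adjusted p = 0.0432) was lost without Irgm_IFNAR-KO replicate 1, 2, 3 or 4 or WT replicate 1, 2, 3 or 4 (log2 fold change -0.23 to -0.19, adjusted p = 0.0564 to 0.111). Thus Gusb was low in both mutants, whereas Scarb2 (log2 fold change 0.01, adjusted p = 0.964), Manba (log2 fold change 0.00, adjusted p = 0.993) and Ppt1 (log2 fold change -0.07, adjusted p = 0.87) did not pass against WT. Without WT replicate 2, Irgm1-KO replicate 3 and Irgm_IFNAR-KO replicate 4, the libraries that stood apart, more genes were called, in the set and over all genes. In Irgm1-KO against WT 13 were higher and 10 lower (28.3% and 21.7%, against 26.7% and 25% of all genes). In Irgm_IFNAR-KO against Irgm1-KO 8 were higher and 18 lower (17.4% and 39.1%, against 25.8% and 28.9%), and against WT 1 and 10 (2.17% and 21.7%, against 5.74% and 11%).

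Fenofibrate was set against control cells within each genotype. In WT cells 20 of 46 genes rose (43.5%, against 18.1% of all tested genes) and 7 fell (15.2%, against 16.9%). In Irgm1KO cells 23 rose (50%, against 23.5%) and 7 fell (15.2%, against 22.2%). The median log2 fold change was 0.11 in WT and 0.18 in Irgm1KO cells, against 0.02 and 0.01 for all genes. These 2 comparisons share no libraries. They had 13 genes higher in both (65% of 20, 56.5% of 23, against 45.5% and 35% of all genes called higher) and 3 lower in both (Ctsc, Tfe3 and Mitf). Calls in the same direction made up 59.3% of 27 and 53.3% of 30, against 48.2% and 36.9% of all called genes. Of the 27 called in WT, 3 passed in opposite directions (Gla, Gusb and Manba), as did 9.91% of all 5407 genes called in WT. The share of all counts taken by the 46 genes was 6.75% ± 0.473 in WT control, 8.28% ± 0.261 in WT fenofibrate, 5.73% ± 0.136 in Irgm1KO control and 7.54% ± 0.585 in Irgm1KO fenofibrate libraries (SD, n = 4). Each fenofibrate library was above each control library of WT and, in Irgm1KO, likewise (6.69% to 7.97% against 5.6% to 5.92%).

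Summed over each role, the same order appeared for proteases, membrane proteins and lipid breakdown. Proteases summed to 29300 ± 1200 CPM in WT control, 32200 ± 939 in WT fenofibrate, 23600 ± 732 in Irgm1KO control and 30400 ± 1960 in Irgm1KO fenofibrate libraries, sums in which Ctsb holds the most. Lipid breakdown genes, led by Psap, summed to 27200 ± 1070, 32400 ± 507, 22000 ± 676 and 30100 ± 1640 CPM in the same order of groups. Membrane proteins summed to 6870 ± 219, 8060 ± 251, 6120 ± 192 and 7630 ± 411 CPM. Glycan-degrading enzymes summed to 3340 ± 104 and 3460 ± 57.4 CPM in the WT groups and to 2190 ± 120 and 2960 ± 146 in the Irgm1KO groups. The MiT factors summed to 254 ± 4.68 and 198 ± 12.9 CPM in the WT groups and to 270 ± 4.83 and 217 ± 9.49 in the Irgm1KO groups, so that their sum was lower with fenofibrate in every library of both genotypes. Proton pump genes summed to 3140 ± 76.4, 3430 ± 152, 3300 ± 57.7 and 3540 ± 158 CPM.

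**Figure D4:**
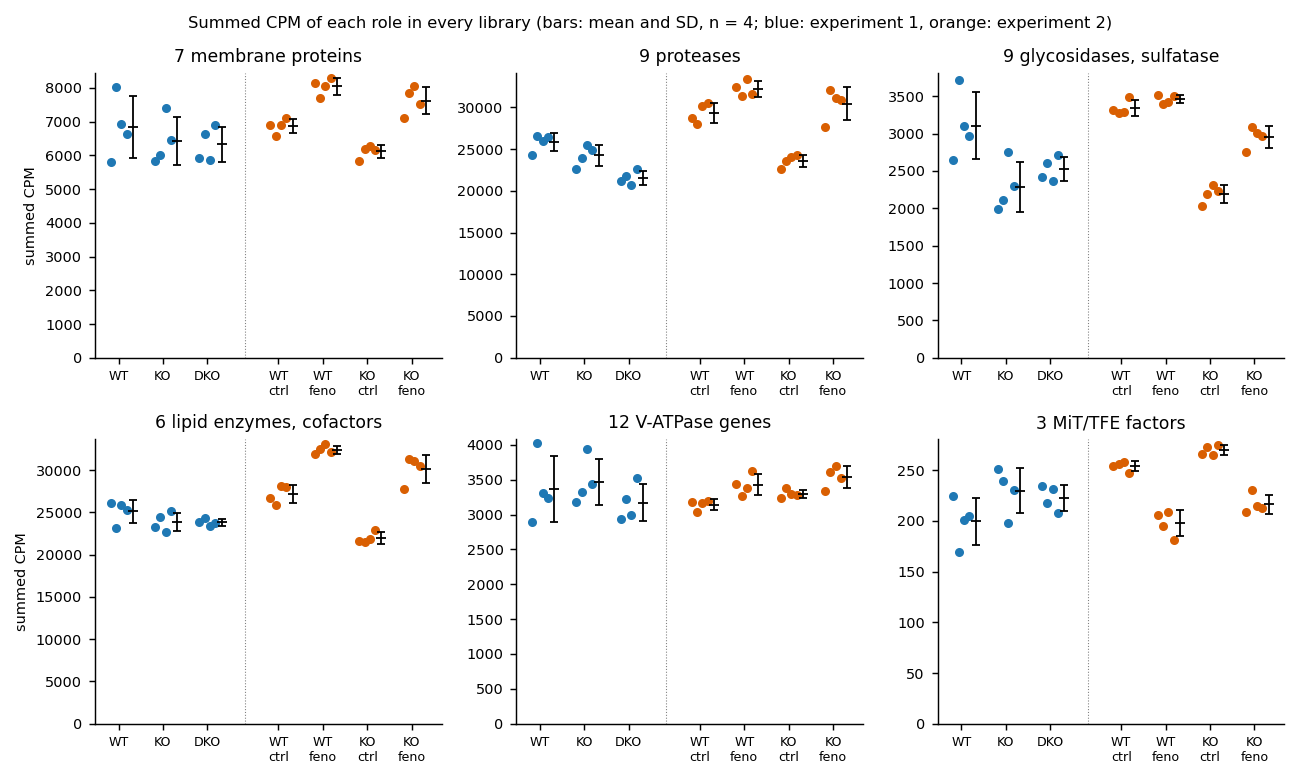
Summed normalised CPM of the genes of each role in each library, by group, with each library as 1 point. The sums for proteases and lipid breakdown are lowest in Irgm1KO control libraries in experiment 2 and higher in both fenofibrate groups than in their controls.

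Membrane proteins gave 4 rises and 1 fall among 7 in WT cells (57.1% and 14.3%, against 18.1% and 16.9% of all tested genes). They gave 4 rises and 2 falls in Irgm1KO cells (57.1% and 28.6%, against 23.5% and 22.2%). Lamp1 read 3654, 3481, 3641 and 3621 CPM in WT fenofibrate libraries against 2961, 2726, 2958 and 3028 in WT control (log2 fold change 0.30, SE 0.0507, adjusted p = 0.000262). In Irgm1KO fenofibrate libraries it read 3108, 3251, 3420 and 3264 CPM against 2320, 2448, 2497 and 2420 in Irgm1KO control (log2 fold change 0.43, SE 0.0508, adjusted p = 3.92e-06). Neither pair of groups overlaps. Mcoln1 rose from 35.2, 31.8, 35.2 and 35.4 to 52.7, 48.0, 48.3 and 57.4 CPM in WT (log2 fold change 0.58, SE 0.085, adjusted p = 7.58e-05). In Irgm1KO cells it read 42.2, 60.3, 52.8 and 47.9 CPM against 40.8, 42.2, 42.6 and 42.5 (log2 fold change 0.28, SE 0.0848, adjusted p = 0.0139), with overlap. The call was lost without Irgm1KO fenofibrate replicate 2 (log2 fold change 0.17, adjusted p = 0.0711). Cd68 rose by 0.42 (adjusted p = 0.003) and 0.57 (adjusted p = 0.000139) and Cd63 by 0.29 (adjusted p = 0.00773) and 0.40 (adjusted p = 0.000501) on the log2 scale in WT and Irgm1KO cells.

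Scarb2 moved little with fenofibrate. It read 352, 396, 348 and 363 CPM in WT fenofibrate libraries (log2 fold change -0.21, SE 0.0701, adjusted p = 0.0264 against WT control). The fall was lost without WT control replicate 2 or WT fenofibrate replicate 1, 3 or 4 (log2 fold change -0.21 to -0.16, adjusted p = 0.0534 to 0.102). In Irgm1KO fenofibrate libraries it read 245, 233, 260.4 and 258 CPM (log2 fold change 0.17, SE 0.0702, adjusted p = 0.0641 against Irgm1KO control). The fit with replicate blocks within genotype called it higher (log2 fold change 0.17, adjusted p = 0.00589). All Irgm1KO libraries, with or without fenofibrate, stayed below all WT libraries for Scarb2. Cln3 gave 0.02 (adjusted p = 0.87) in WT and fell, at -0.44 (adjusted p = 0.000225) in Irgm1KO cells. Lamp2 fell, at -0.20 (adjusted p = 0.0301) in Irgm1KO cells, a call lost without Irgm1KO control replicate 1 or 4 (log2 fold change -0.20, adjusted p = 0.0628 to 0.0649).

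Proteases gave 4 rises and 1 fall among 9 in WT cells (44.4% and 11.1%, against 18.1% and 16.9% of all tested genes). They gave 6 rises and 1 fall in Irgm1KO cells (66.7% and 11.1%, against 23.5% and 22.2%). Ctsd read 3772, 3678, 3434 and 4376 CPM in WT fenofibrate libraries (log2 fold change 0.37, SE 0.108, adjusted p = 0.0139 against WT control). The call was lost without WT fenofibrate replicate 4 (log2 fold change 0.30, adjusted p = 0.0537). In Irgm1KO cells Ctsd rose to 2723, 3798, 3572 and 3277 CPM, above every Irgm1KO control library (log2 fold change 0.69, SE 0.108, adjusted p = 6.58e-05). Tpp1 rose to 440.4, 423, 433 and 505 CPM in WT fenofibrate libraries (log2 fold change 0.46, SE 0.0806, adjusted p = 0.000372). It rose to 334, 412, 430 and 386 in Irgm1KO fenofibrate libraries (log2 fold change 0.67, SE 0.0808, adjusted p = 4.71e-06). Both Tpp1 rises left no overlap with the controls of the same genotype. Ctsb rose by 0.21 (adjusted p = 0.0287) in WT and by 0.55 (adjusted p = 1.11e-05) in Irgm1KO cells. The call in WT was lost without WT control replicate 1 or 2 or WT fenofibrate replicate 1 or 3 (log2 fold change 0.16 to 0.21, adjusted p = 0.0565 to 0.1).

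Ctsz rose to 1713, 1711, 1644 and 1837 CPM in WT fenofibrate libraries (log2 fold change 0.42, SE 0.0942, adjusted p = 0.00246) and read 1553, 2429, 2100 and 1962 CPM in Irgm1KO fenofibrate libraries, a range that includes the whole Irgm1KO control range (log2 fold change 0.12, adjusted p = 0.297). The exception among proteases was Ctsc. In WT it fell from 3541, 4269, 3401 and 3485 CPM in control to 1962, 2267, 1947 and 1676 in fenofibrate libraries (log2 fold change -0.90, SE 0.116, adjusted p = 2.56e-05). In Irgm1KO cells it fell from 4246, 3388, 3850 and 4224 to 3341, 2365, 2935 and 3251 CPM (log2 fold change -0.40, SE 0.115, adjusted p = 0.00921). No fenofibrate library reached a control value of its genotype for Ctsc. Ctsa gave 0.17 (adjusted p = 0.0997) in WT and rose by 0.44 (adjusted p = 0.000244) in Irgm1KO cells, and with blocks the WT value passed (log2 fold change 0.17, adjusted p = 0.00551). Ctsl gave 0.37 (adjusted p = 0.159) in WT, where it passed with blocks (log2 fold change 0.36, adjusted p = 8.35e-06), and rose by 0.63 (adjusted p = 0.0146) in Irgm1KO cells. The second call was lost without Irgm1KO control replicate 1 or 4 or Irgm1KO fenofibrate replicate 2 (log2 fold change 0.46 to 0.54, adjusted p = 0.0518 to 0.07). Lgmn rose by 0.19 (adjusted p = 0.0109) in Irgm1KO cells and was lost without Irgm1KO control replicate 2 or 4 or Irgm1KO fenofibrate replicate 1 (log2 fold change 0.14 to 0.16, adjusted p = 0.0553 to 0.0715).

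Of the glycan-degrading enzymes, 4 of 9 rose and 2 fell in WT cells (44.4% and 22.2%, against 18.1% and 16.9% of all tested genes). In Irgm1KO cells 6 rose and 1 fell (66.7% and 11.1%, against 23.5% and 22.2%). Gusb fell in WT, to 709, 705, 633 and 658 CPM (log2 fold change -0.29, SE 0.0607, adjusted p = 0.0015), and rose in Irgm1KO cells, to 537, 544, 562 and 595 CPM (log2 fold change 0.69, SE 0.061, adjusted p = 1.81e-07). The Irgm1KO fenofibrate libraries stood above their controls and still below every WT library for Gusb. Hexa read 1515, 1420, 1480 and 1471 CPM in WT fenofibrate libraries (log2 fold change 0.09, adjusted p = 0.295) and rose to 1127, 1295, 1236 and 1199 CPM in Irgm1KO fenofibrate libraries (log2 fold change 0.66, SE 0.0609, adjusted p = 3.07e-07). Glb1 read 224, 224, 233 and 213 CPM in WT fenofibrate libraries (log2 fold change -0.00, adjusted p = 0.986) and rose to 167, 180.1, 165 and 172 CPM in Irgm1KO fenofibrate libraries (log2 fold change 0.42, SE 0.0525, adjusted p = 7.48e-06). For both enzymes the Irgm1KO fenofibrate range lay between the ranges of Irgm1KO control and WT control. Sgsh read 112, 109, 113 and 104 CPM in WT and 78.9, 78.1, 82.9 and 83.7 in Irgm1KO fenofibrate libraries and passed in neither genotype (log2 fold change -0.09, adjusted p = 0.265, and 0.06, adjusted p = 0.406).

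Gaa rose to 204, 195, 203 and 243 CPM in WT fenofibrate libraries (log2 fold change 0.64, SE 0.0844, adjusted p = 3.34e-05). It rose to 175, 229, 220.2 and 197 CPM in Irgm1KO fenofibrate libraries (log2 fold change 0.36, SE 0.0842, adjusted p = 0.00233). Neither range overlaps its controls. Naglu rose by 0.38 (adjusted p = 0.0014) and 0.37 (adjusted p = 0.000914). Gla went in opposite directions. It rose from 299.7, 269, 300.5 and 314 CPM in WT control to 345, 338, 353 and 367 in WT fenofibrate libraries (log2 fold change 0.24, SE 0.0527, adjusted p = 0.00182). It fell from 359.7, 385, 364 and 386 CPM in Irgm1KO control to 300.3, 322, 336 and 324 in Irgm1KO fenofibrate libraries (log2 fold change -0.22, SE 0.0527, adjusted p = 0.00253). Gla therefore differed between genotypes in control cells, and the 2 fenofibrate ranges lay closer together. Manba fell in WT, at -0.14 (adjusted p = 0.0283), and rose by 0.18 (adjusted p = 0.00433) in Irgm1KO cells. The fall was lost without WT control replicate 1 or 4 or WT fenofibrate replicate 1 or 3 (log2 fold change -0.13 to -0.11, adjusted p = 0.0643 to 0.0913). Neu1 rose by 0.29 (adjusted p = 0.00245) in WT and gave 0.15 (adjusted p = 0.0661) in Irgm1KO cells, where it passed with blocks (log2 fold change 0.15, adjusted p = 0.03).

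Genes of lipid breakdown gave 3 rises and 1 fall among 6 in each genotype (50% and 16.7%). Of all tested genes, 18.1% rose and 16.9% fell in WT cells, and 23.5% and 22.2% in Irgm1KO cells. Psap rose to 23890, 24900, 25240 and 24340 CPM in WT fenofibrate libraries (log2 fold change 0.31, SE 0.0615, adjusted p = 0.000984). In Irgm1KO fenofibrate libraries Psap rose to 19720, 22610, 22610 and 22010 CPM (log2 fold change 0.62, SE 0.0617, adjusted p = 5.99e-07). Each range lay above its controls. Lipa rose by 0.26 (adjusted p = 0.000497) in Irgm1KO cells. Its rise in WT (log2 fold change 0.14, adjusted p = 0.043) was lost without WT control replicate 1, 2 or 3 or WT fenofibrate replicate 1, 2 or 4 (log2 fold change 0.11 to 0.15, adjusted p = 0.0528 to 0.143) and with RLE scaling. Smpd1 rose by 0.25 (adjusted p = 0.0118) in Irgm1KO cells, a call lost without Irgm1KO fenofibrate replicate 2 (log2 fold change 0.16, adjusted p = 0.0582). In WT it gave 0.20 (adjusted p = 0.0547) and passed with blocks (log2 fold change 0.20, adjusted p = 0.0174). Grn rose to 4394, 4003, 4270 and 4385 CPM in WT fenofibrate libraries (log2 fold change 0.21, SE 0.0655, adjusted p = 0.0187), a call lost without WT control replicate 2 (log2 fold change 0.17, adjusted p = 0.0722). It read 4050, 4914, 4453 and 4334 CPM in Irgm1KO fenofibrate libraries (log2 fold change 0.04, adjusted p = 0.631).

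Ppt1 ran against the others in WT cells. It fell to 838, 819.5, 885 and 639 CPM in WT fenofibrate libraries (log2 fold change -0.41, SE 0.0832, adjusted p = 0.00125) and read 1069, 1023, 966 and 1071 CPM in Irgm1KO fenofibrate libraries, above every Irgm1KO control library (log2 fold change 0.19, adjusted p = 0.0695). With blocks the second value passed (log2 fold change 0.19, adjusted p = 0.00452). Asah1 fell in Irgm1KO cells, at -0.17 (adjusted p = 0.0476), a call lost without Irgm1KO control replicate 1, 3 or 4 or Irgm1KO fenofibrate replicate 2 (log2 fold change -0.18 to -0.12, adjusted p = 0.0645 to 0.107). In WT it gave -0.14 (adjusted p = 0.101) and passed with blocks (log2 fold change -0.15, adjusted p = 0.0229).

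Of the proton pump's V1 subunits, 3 of 6 rose in WT cells (50%, against 18.1% of all tested genes). In Irgm1KO cells 0 of 6 were called by edgeR, where 23.5% of all tested genes rose. There 1 was higher at an unadjusted p below 0.05, and DESeq2 called 0. Atp6v1a read 741, 707, 742 and 786 CPM in WT fenofibrate libraries, above every WT control library (log2 fold change 0.22, SE 0.0643, adjusted p = 0.0138). The call was lost without WT control replicate 2 (log2 fold change 0.19, adjusted p = 0.0668). In Irgm1KO fenofibrate libraries it read 724, 608, 779 and 736 CPM, across the control range (log2 fold change -0.05, adjusted p = 0.582). Atp6v1c1 rose to 215, 213, 207 and 269.7 CPM in WT (log2 fold change 0.56, SE 0.0803, adjusted p = 7.21e-05) and read 200.5, 239, 240.4 and 222 in Irgm1KO fenofibrate libraries (log2 fold change 0.18, adjusted p = 0.0727), where it passed with blocks (log2 fold change 0.18, adjusted p = 0.00826). Atp6v1d rose by 0.15 (adjusted p = 0.0119) in WT and gave -0.04 (adjusted p = 0.482) in Irgm1KO cells. Atp6v1h, at 89.3, 82.1, 88.4 and 99.8 CPM in WT and 102, 109, 107 and 106 in Irgm1KO fenofibrate libraries, passed in neither (log2 fold change 0.02, adjusted p = 0.8, and -0.04, adjusted p = 0.556).

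Of the V0 sector, 2 of the 4 subunits in the set, Atp6v0a1 and Atp6v0d1, rose in each genotype. That is 50%, against 18.1% of all tested genes in WT and 23.5% in Irgm1KO cells. Atp6v0a1, the subunit that sets where the pump is placed in the cell, rose by 0.29 (adjusted p = 0.0154) in WT and by 0.66 (adjusted p = 1.33e-05) in Irgm1KO cells. The call in WT was lost without WT control replicate 2 or 3 or WT fenofibrate replicate 1 or 4 (log2 fold change 0.23 to 0.26, adjusted p = 0.0517 to 0.0644). Atp6v0d1 rose by 0.18 (adjusted p = 0.0266) in WT and by 0.22 (adjusted p = 0.00462) in Irgm1KO cells. The call in WT was lost without WT control replicate 2 or 3 or WT fenofibrate replicate 4 (log2 fold change 0.13 to 0.17, adjusted p = 0.0688 to 0.0994). Atp6v0b and Atp6v0c, of the proteolipid ring, gave log2 fold changes from -0.04 (Atp6v0c in WT) to 0.02 (Atp6v0c in Irgm1KO). Both accessory proteins rose in Irgm1KO cells, Atp6ap1 by 0.27 (adjusted p = 0.00164) and Atp6ap2 by 0.14 (adjusted p = 0.0242). The call of Atp6ap2 was lost without Irgm1KO control replicate 1, 2 or 4 or Irgm1KO fenofibrate replicate 1, 3 or 4 (log2 fold change 0.11 to 0.13, adjusted p = 0.0632 to 0.131).

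Of the MiT factors, Mitf and Tfe3 fell with fenofibrate. Mitf fell from 84.7, 93.1, 83.7 and 82.6 to 63.0, 66.3, 65.8 and 54.4 CPM in WT cells (log2 fold change -0.46, SE 0.0716, adjusted p = 0.000128). In Irgm1KO cells Mitf fell from 86.9, 84.3, 86.9 and 86.4 to 58.1, 47.0, 56.9 and 58.7 CPM (log2 fold change -0.64, SE 0.0718, adjusted p = 2.22e-06). The groups overlap in neither genotype. Tfe3 fell from 134, 131, 138 and 132 to 109, 99.5, 112 and 98.1 CPM in WT cells (log2 fold change -0.35, SE 0.0515, adjusted p = 7.77e-05). In Irgm1KO cells Tfe3 fell from 135, 136, 131 and 139.9 to 112, 127, 115 and 114 CPM (log2 fold change -0.21, SE 0.0514, adjusted p = 0.0031). Again no fenofibrate library reached its controls. Tfeb read 34.5, 29.1, 30.9 and 28.2 CPM in WT (log2 fold change -0.17, adjusted p = 0.211) and 38.3, 56.3, 43.3 and 40.0 CPM in Irgm1KO fenofibrate libraries (log2 fold change -0.13, adjusted p = 0.32), and with blocks the WT value passed (log2 fold change -0.17, adjusted p = 0.031). Transcript levels of Mitf and Tfe3 were lower in the same libraries in which Lamp1, Tpp1, Psap and Gaa were higher. Other genes of the set were lower there: Ctsc in both genotypes, Scarb2, Gusb, Manba and Ppt1 in WT, and Lamp2, Cln3, Gla and Asah1 in Irgm1KO cells. RNA counts do not measure the activity of the MiT factors, and a link between these changes was not tested. Of the 13 genes with TCACGTG in the promoter, 7 rose in WT cells, and 8 rose and 2 fell in Irgm1KO cells. Of the 27 without it, 11 rose and 7 fell, and 14 rose and 4 fell. Among all tested genes, 18.1% rose and 16.9% fell in WT cells, and 23.5% and 22.2% in Irgm1KO cells. The median log2 fold changes were 0.22 and 0.28 with the motif and 0.09 and 0.18 without. For the difference between the fenofibrate effects they were 0.01 with and 0.12 without. In Irgm_IFNAR-KO against Irgm1-KO cells they were -0.28 with the motif and -0.01 without, and against WT -0.12 and -0.03. In Irgm1-KO against WT cells they were -0.01 and -0.00, and in Irgm1KO control against WT control 0.08 and -0.07. None of these splits was tested.

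**Figure D5:**
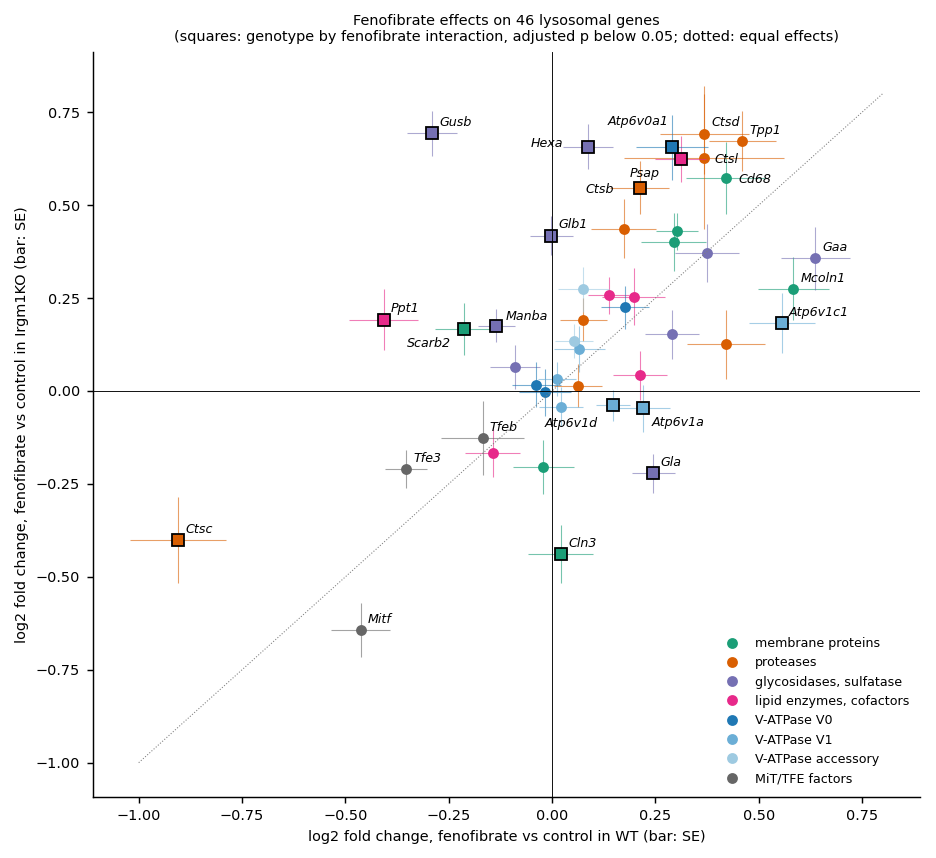
Log2 fold change with fenofibrate in WT cells (x axis) against that in Irgm1KO cells (y axis) for each of the 46 genes, where squares mark genes whose effects differed between genotypes (interaction, adjusted p below 0.05) and the dotted line marks equal effects. Gusb lies farthest above the line (-0.29 in WT, 0.69 in Irgm1KO) and Gla and Cln3 lie below it.

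The difference between the 2 fenofibrate effects was tested as an interaction, the effect in Irgm1KO minus that in WT cells. It was above 0 for 10 of 46 genes (21.7%, against 14.9% of all tested genes) and below 0 for 5 (10.9%, against 14.7%). Gusb gave the largest difference of the set, 0.98, SE 0.086, adjusted p = 1.07e-06. Hexa (0.57, SE 0.0858, adjusted p = 0.000134), Ppt1 (0.60, SE 0.118, adjusted p = 0.00119), Glb1 (0.42, SE 0.0741, adjusted p = 0.000518) and Scarb2 (0.38, SE 0.0992, adjusted p = 0.00881) also lay above 0. Manba (log2 fold change 0.31, adjusted p = 0.00167), Psap (log2 fold change 0.31, adjusted p = 0.0122) and Ctsb (log2 fold change 0.33, adjusted p = 0.0196) were smaller. Ctsc, which fell in both genotypes, gave 0.50 (adjusted p = 0.0287). Its call was lost without Irgm1KO control replicate 2, Irgm1KO fenofibrate replicate 1 or 4, WT control replicate 2 or WT fenofibrate replicate 4 (log2 fold change 0.41 to 0.46, adjusted p = 0.0572 to 0.0802). The tenth gene, Atp6v0a1 (log2 fold change 0.36, adjusted p = 0.0346), was lost without Irgm1KO control replicate 1, 2 or 4, Irgm1KO fenofibrate replicate 2 or 3, WT control replicate 1 or 4 or WT fenofibrate replicate 2 or 3 (log2 fold change 0.30 to 0.36, adjusted p = 0.0581 to 0.0767).

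Below 0 were Gla (-0.47, SE 0.0745, adjusted p = 0.000228), Cln3 (-0.46, SE 0.111, adjusted p = 0.00509) and the V1 subunits Atp6v1c1 (log2 fold change -0.37, adjusted p = 0.0206), Atp6v1a (log2 fold change -0.27, adjusted p = 0.0362) and Atp6v1d (log2 fold change -0.18, adjusted p = 0.0267). The call of Atp6v1a was lost without Irgm1KO control replicate 1, 2 or 3, WT control replicate 2 or 3 or WT fenofibrate replicate 1, 3 or 4 (log2 fold change -0.28 to -0.24, adjusted p = 0.0528 to 0.0733). That of Atp6v1d was lost without Irgm1KO fenofibrate replicate 4, WT control replicate 4 or WT fenofibrate replicate 3 (log2 fold change -0.18 to -0.17, adjusted p = 0.0538 to 0.0566). With blocks the counts were 15 above and 8 below 0 (32.6% and 17.4%, against 19.3% and 19.1% of all tested genes). The added genes were Ctsa (log2 fold change 0.26, adjusted p = 0.0043), Ctsd (log2 fold change 0.31, adjusted p = 0.00181), Ctsl (log2 fold change 0.27, adjusted p = 0.00184), Tpp1 (log2 fold change 0.21, adjusted p = 0.0132) and Atp6ap1 (log2 fold change 0.20, adjusted p = 0.0188) above 0, and Mcoln1 (log2 fold change -0.32, adjusted p = 0.0137), Ctsz (log2 fold change -0.31, adjusted p = 0.0235) and Gaa (log2 fold change -0.28, adjusted p = 0.00732) below 0. The comparison of Irgm1KO control with WT control cells enters the interaction with a minus sign. Opposite signs in the 2 are therefore favoured by the shared libraries and are no independent result. Its log2 fold changes were -1.26 for Gusb, -0.85 for Hexa, -0.81 for Glb1, -0.93 for Scarb2 and -0.42 for Manba. For Ppt1, Ctsb, Psap and Atp6v0a1 they were -0.22, -0.57, -0.49 and -0.09, and for Ctsc 0.10, the same sign as its interaction. For Gla, Cln3, Atp6v1c1, Atp6v1a and Atp6v1d they were 0.34, 0.25, 0.37, 0.20 and 0.11.

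Other lysosomal genes, taken from lists of related function, split by gene too. The shares of all tested genes that rose and fell were 19.8% and 20.7% in Irgm1-KO against WT, 27.3% and 26.1% in Irgm1KO control against WT control, 18.1% and 16.9% with fenofibrate in WT and 23.5% and 22.2% in Irgm1KO cells. Of 8 further proton pump subunits, 2 rose and 2 fell in experiment 1 (25% each) and 3 rose and 1 fell in experiment 2 (37.5% and 12.5%). Tcirg1, the a3 subunit of V0, rose by 1.00 (adjusted p = 6.19e-06) and 0.75 (adjusted p = 6.21e-07) on the log2 scale. It was lower in Irgm_IFNAR-KO than in Irgm1-KO cells at -1.10 (adjusted p = 2.23e-06). Fenofibrate moved it in opposite directions, 0.32 (adjusted p = 0.00391) in WT and -0.30 (adjusted p = 0.00419) in Irgm1KO cells. Atp6v0a2, the a2 subunit, rose by 0.55 (adjusted p = 0.000181) and 0.41 (adjusted p = 9.96e-07). The a1 subunit gene Atp6v0a1 gave -0.32 (adjusted p = 0.128) and -0.09 (adjusted p = 0.408) in the same comparisons. Atp6v0e2, an e2 subunit, fell in both, at -3.53 (adjusted p = 0.000329) and -3.52 (adjusted p = 3.13e-06). Atp6v0d2, the d2 subunit, fell, at -1.26 (adjusted p = 6.98e-06), in experiment 1 and gave a value of the other sign, 0.59 (adjusted p = 0.273), in experiment 2. It rose with fenofibrate by 1.35 (adjusted p = 0.0271) in WT and 1.31 (adjusted p = 0.0238) in Irgm1KO cells.

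Of 39 further hydrolases and activators, 9 rose and 14 fell in experiment 1 (23.1% and 35.9%) and 10 rose and 16 fell in experiment 2 (25.6% and 41%). Ctsk, the collagen-degrading cathepsin of osteoclasts, rose by 1.84 (adjusted p = 7.82e-05) and 1.82 (adjusted p = 4.31e-08). Ctsf fell, at -2.24 (adjusted p = 1.27e-08) and -1.79 (adjusted p = 5.09e-07), and Galc, which degrades galactosylceramide, at -1.06 (adjusted p = 5.79e-07) and -1.36 (adjusted p = 1.36e-08). Against Irgm1-KO cells, Irgm_IFNAR-KO cells were higher in Ctsf by 2.16 (adjusted p = 6.37e-09) and in Galc by 1.22 (adjusted p = 1.2e-07), and 13 hydrolases were higher and 12 lower (33.3% and 30.8%, against 21.5% and 21.3% of all tested genes). With fenofibrate 13 rose and 12 fell in WT (33.3% and 30.8%) and 22 rose and 7 fell in Irgm1KO cells (56.4% and 17.9%). Naaa, an acid amidase, fell with fenofibrate, at -1.26 (adjusted p = 1.37e-05) in WT and -0.50 (adjusted p = 0.0091) in Irgm1KO cells, and Hyal1, a hyaluronidase, rose by 1.43 (adjusted p = 2.06e-05) and 0.86 (adjusted p = 0.000648). Man2b1, α-mannosidase, fell with loss of Irgm1, at -1.25 (adjusted p = 1.07e-05) and -1.30 (adjusted p = 1.38e-08). With fenofibrate it gave -0.55 (adjusted p = 0.000301) in WT and 0.49 (adjusted p = 0.000439) in Irgm1KO cells, a difference of 1.04 (adjusted p = 3.34e-05).

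Of 37 further membrane proteins and transporters, 11 rose and 11 fell in experiment 1 (29.7% each) and 11 rose and 16 fell in experiment 2 (29.7% and 43.2%). Slc17a5, which exports sialic acid, fell, at -1.16 (adjusted p = 4.42e-08) and -1.13 (adjusted p = 2.27e-09). Slc11a1, the metal transporter NRAMP1 of phagosomes, rose by 0.70 (adjusted p = 5.97e-06) and 0.72 (adjusted p = 1.94e-07). Mcoln2, a relative of Mcoln1, rose by 1.05 (adjusted p = 2.59e-05) and 0.39 (adjusted p = 0.00884), and Mcoln3 fell, at -2.81 (adjusted p = 2.98e-06) and -1.77 (adjusted p = 0.000222). With fenofibrate 10 rose and 8 fell in WT (27% and 21.6%) and 15 rose and 11 fell in Irgm1KO cells (40.5% and 29.7%). Abca2 gave -0.23 (adjusted p = 0.0826) in WT and rose by 1.15 (adjusted p = 2.2e-07) in Irgm1KO cells, and Slc48a1, a heme transporter, rose by 0.29 (adjusted p = 0.0014) and 0.82 (adjusted p = 3.76e-08).

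Of 24 genes that sort proteins to lysosomes or position and fuse them, 7 rose and 3 fell in experiment 1 (29.2% and 12.5%) and 8 rose and 5 fell in experiment 2 (33.3% and 20.8%). With fenofibrate 7 rose and 6 fell in WT (29.2% and 25%) and 8 rose and 5 fell in Irgm1KO cells (33.3% and 20.8%). Sort1, sortilin, a sorting receptor for some hydrolases, fell, at -2.86 (SE 0.156, adjusted p = 5.93e-08) and -2.94 (SE 0.181, adjusted p = 4.77e-09). In Irgm_IFNAR-KO cells it was higher than in Irgm1-KO cells by 2.96 (SE 0.157, adjusted p = 2.92e-08). With fenofibrate Sort1 gave -0.33 (adjusted p = 0.134) in WT and rose by 2.04 (SE 0.177, adjusted p = 2.61e-07) in Irgm1KO cells, and the effect differed between genotypes by 2.38 (SE 0.241, adjusted p = 6.33e-06). Of the mannose 6-phosphate receptors, Igf2r gave -0.63 (adjusted p = 0.0816) in experiment 1 and fell, at -1.32 (adjusted p = 6.33e-08), in experiment 2. With fenofibrate it gave -0.10 (adjusted p = 0.534) in WT and rose by 0.92 (adjusted p = 4.22e-06) in Irgm1KO cells. M6pr rose by 0.47 (adjusted p = 0.0021) and 0.37 (adjusted p = 9.14e-05) with loss of Irgm1 and fell with fenofibrate, at -0.36 (adjusted p = 0.00034) in WT and -0.68 (adjusted p = 2.7e-07) in Irgm1KO cells. Of 19 genes of nutrient signalling at the lysosome, 1 was called in experiment 1 (5.26%), and 5 rose and 8 fell in experiment 2 (26.3% and 42.1%). That gene, Rragc, a Rag GTPase, rose in experiment 1 (log2 fold change 0.23, adjusted p = 0.00899) and fell in experiment 2 (log2 fold change -0.22, adjusted p = 0.000538). With fenofibrate 7 of the 19 rose and 2 fell in WT (36.8% and 10.5%) and 8 rose and 3 fell in Irgm1KO cells (42.1% and 15.8%). Rragd, another Rag GTPase, rose by 0.83 (adjusted p = 0.00442) in WT and 1.00 (adjusted p = 0.000801) in Irgm1KO cells, and the interaction of 0.17 did not pass (adjusted p = 0.703). Tfec, a relative of the MiT factors, gave -0.32 (adjusted p = 0.0811) in experiment 1 and fell, at -0.81 (adjusted p = 8.18e-06), in experiment 2.

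Exons of Lamp1, Cln3, Ctsa, Ctsb, Ctsd, Ctsl, Ctsz, Sgsh, Glb1, Ppt1, Atp6v0b and Atp6v1h overlap those of a neighbouring gene in the GENCODE annotation of build GRCm38, over 0.694% (Ctsz) to 31.5% (Ctsd) of their exon bases. The sources used here do not say whether the counting used strand, so reads of neighbours on the opposite strand could be in these values. For Ctsd (Gm49369, 31.5%), Glb1 (Tmppe, 6.89%) and part of the overlap of Ctsl (Gm49230, 6.4%) the neighbour lies on the same strand. Counting by strand would not separate reads of those neighbours, which could also be in these values.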

How the data were processed

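The authors deposited 1 table of raw, whole-number counts for each experiment, with Ensembl genes in rows. Per the submitters' processing notes, the authors used fastp, STAR and DESeq2 with mouse build GRCm39, without versions; how reads were assigned to genes, and whether by strand, is not given in the sources used here. Samples were grouped by their titles. Genes were matched by symbol and identifier, which gave symbols for 99.6% and 91.2% of the identifiers.

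The fits used edgeR 4.0.16 in R 4.3.3: filterByExpr (minimum count 10, minimum total 15), TMM scaling, 1 robust quasi-likelihood fit per experiment, and contrasts whose p-values were adjusted by Benjamini-Hochberg across every gene tested in that experiment. The SE is the absolute log2 fold change divided by the square root of F. DESeq2 1.42.0 was an alternative. Other alternatives were RLE scaling, no filter, only the compared groups, log2 Xist as a covariate, replicate blocks, leaving out each library and, chosen after seeing the data, leaving out the library with the least Xist of each group of experiment 1. On simulated counts 64.3% (experiment 1, 13998 genes) and 78.8% (experiment 2, 15429 genes) of genes changed by 1 on the log2 scale were recovered. Far fewer genes were changed there (98 and 99 by this size) than were called in the data, so these shares do not give the power of the fits.

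In experiment 2, control and fenofibrate libraries with the same number deviated together within a genotype (correlations 0.38 to 0.49 in WT and 0.26 to 0.37 in Irgm1KO, 4 of 4 pairs each above 0.1), so the numbers pair them, as read from the data and not from the labels. Totals of 48.7 to 120.8 M counts leave counting error small beside the spread between libraries.

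Exon lengths, for CPM per kb and for overlaps, came from GENCODE M21 (GRCm38), and promoters from RefSeq (GRCm38.p6). The genes and the lists of other lysosomal genes were chosen with earlier results of these data known. Values in every library are given for Tfeb, Tfe3, Mitf, Lamp1, Ctsd and Atp6v1h and for genes with an adjusted p under 0.05 and a log2 fold change of at least 0.5 in size, at most the 5 with the smallest p per comparison. Of each other list up to 3 genes per direction with the smallest p were eligible, and Gla, Ctsh and Atp6v0b, outside the first rule, were given by library after their values were seen.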

Additional observations from a re-analysis of the deposited data

Results flagged for a closer look

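The effect of fenofibrate differed between genotypes for 15 genes, by the interaction term of the edgeR fit (Irgm1KO effect minus WT effect, log2). Of the 46 genes, 21.7% lay above 0 and 10.9% below, against 14.9% and 14.7% of all tested genes. The difference was above 0 for Gusb (0.98), Ppt1 (0.60), Hexa (0.57), Ctsc (0.50), Glb1 (0.42), Scarb2 (0.38), Atp6v0a1 (0.36), Ctsb (0.33), Psap (0.31) and Manba (0.31). It was below 0 for Gla (-0.47), Cln3 (-0.46), Atp6v1c1 (-0.37), Atp6v1a (-0.27) and Atp6v1d (-0.18).

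Single libraries lay far from the other 3 of their group in 7 of 147 groups of 4 (4.76%, where chance gives about 5%). Glb1 read 136.8 CPM in WT replicate 2 against 157 to 159.7 in the other WT libraries, and Atp6v1a read 661.6 CPM in Irgm1-KO replicate 1 against 671.2 to 671.7. WT control replicate 2 was high for Ctsc (4269 CPM against 3401 to 3541) and low for Mcoln1 (31.76 CPM against 35.19 to 35.39). Gaa read 149.6 CPM in Irgm1KO control replicate 1 against 162.8 to 164.9. Atp6v1c1 read 269.7 CPM in WT fenofibrate replicate 4 against 206.9 to 215.4, and Mitf 46.98 CPM in Irgm1KO fenofibrate replicate 2 against 56.87 to 58.71.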

How the results depend on the processing

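Over the alternatives run, 2181 comparisons of a called gene with an alternative gave 2030 calls in the same direction, 151 calls lost and 0 reversed. With log2 Xist as a covariate, 17 genes were higher and 13 lower in Irgm1-KO against WT (37% and 28.3%, against 30.3% and 29.8% of all genes), 11 were higher in Irgm_IFNAR-KO against Irgm1-KO (23.9%, against 33.1%), and 4 in Irgm_IFNAR-KO against WT (8.7%, against 14.9%), so that calls over all genes grew too. Without the library with the least Xist of each group, an alternative chosen after seeing the data, 1 gene was higher in Irgm_IFNAR-KO against WT (2.17%, against 5.74% of all genes). A replicate block was also fitted in experiment 1, where same-numbered libraries did not deviate together (correlations from -0.48 to 0.52). It gave 5 genes lower in Irgm_IFNAR-KO against WT (10.9%, against 7% of all genes). For the interaction, 3 genes were below 0 with no filter (6.52%, against 5.5%) and 8 with the replicate block within genotype (17.4%, against 19.1%). That block kept every other count of genes within 1.5 times and lost no call. The causes were not tested.

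Leaving out 1 library at a time gave 9 to 13 genes higher and 8 to 11 lower in Irgm1-KO against WT, 5 to 7 and 13 to 15 in Irgm_IFNAR-KO against Irgm1-KO, and 0 and 5 to 8 in Irgm_IFNAR-KO against WT, with 5 without WT replicate 3 or 4 or Irgm_IFNAR-KO replicate 2 or 3. The counts were 10 to 13 and 13 to 14 for Irgm1KO control against WT control, 14 to 20 and 5 to 7 for fenofibrate in WT, and 20 to 24 and 5 to 7 in Irgm1KO. For Irgm1KO control that is 21.7% to 28.3% and 28.3% to 30.4%, against 25.2% to 25.9% and 23.4% to 24.8% of all genes. Fenofibrate in WT gave 30.4% to 43.5% and 10.9% to 15.2%, against 14.1% to 16.7% and 14.1% to 15.9%. In Irgm1KO it gave 43.5% to 52.2% and 10.9% to 15.2%, against 19.8% to 22.6% and 19.4% to 24.7%. The interaction gave 8 to 12 above 0 and 3 (without WT fenofibrate replicate 3) to 9 (without Irgm1KO fenofibrate replicate 2) below 0. Those are 17.4% to 26.1% and 6.52% to 19.6%, against 12.4% to 16.8% and 12.1% to 18% of all genes. On simulated counts, changes of 0.5 on the log2 scale were recovered in 19.2% of genes in experiment 1 and 48% in experiment 2. There small changes were missed, more often in experiment 1. Only 99 and 100 genes were changed by that size, whereas 5660 (Irgm1-KO against WT) and 8245 (Irgm1KO control against WT control) were called in the data. An adjusted p is harder to pass where few genes change, so these shares do not give the power of the fits.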
